A study of Mus musculus with 40 samples.

Results

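CTAL2 is the larger of 2 classes of cortical thick ascending limb nuclei that the authors' deposited annotation separates in mouse kidney. Its members were taken as every nucleus with the value CTAL2 in the coarser of the annotation's 2 columns, which gave 932 of 16500 nuclei, and all 932 carry the same name in the finer column. The nuclei come from the right kidneys of 4 male C57BL/6 mice aged 8 to 12 weeks, taken 24 h after surgery. Surgery had taken out the left kidney of 2 mice (UNx, for unilateral nephrectomy), and 2 mice had a sham operation that left both kidneys in place. No genetic change is named for either group, and all mice shared the isoflurane anaesthesia and buprenorphine pain relief. A transverse slice through the middle of the kidney was used, and nuclei were sorted by a DNA stain before droplet capture. Sham 1 and UNx 1 are labelled as batch 3 and sham 2 and UNx 2 as batch 4, so each batch holds 1 mouse of each group. CTAL2 nuclei numbered 304 in sham 1, 124 in sham 2, 335 in UNx 1 and 169 in UNx 2.

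The thick ascending limb is the stretch of the nephron that takes up sodium chloride without water and so dilutes the urine and builds the concentration gradient of the medulla. Salt enters its cells through the cotransporter NKCC2 (Slc12a1), and potassium returns to the lumen through ROMK (Kcnj1). The lumen-positive voltage that results drives cations between the cells through claudin pores, where claudin-10 forms a sodium path and claudin-16 with claudin-19 a path for calcium and magnesium. The segment also secretes uromodulin (Umod), the main protein of normal urine, and is the main renal source of epidermal growth factor (Egf).

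Summed over its nuclei, CTAL2 held between 1077000 and 2535620 unique molecular identifiers (UMIs, counted transcripts) per mouse, and the median nucleus held 6342.5, 7780, 7346 and 6581 UMIs in sham 1, sham 2, UNx 1 and UNx 2. Levels below are UMIs of a gene per 1000000 UMIs of the summed nuclei (CPM), always in the order sham 1, sham 2, UNx 1, UNx 2. The batches differed in RNA that does not belong to thick limb nuclei. Mitochondrially encoded genes took 0.829%, 5.95%, 1.18% and 8.27% of the CTAL2 counts. The phosphate transporter Slc34a1, a defining gene of the proximal tubule, stood at 125, 1324, 120 and 1509 CPM in CTAL2 against 5231 to 6483 CPM in the S1 proximal tubule class PTS1, which is 2.38%, 20.4%, 2.26% and 25.3% of its level there. The proportion differed between proximal tubule genes, for example 18.9%, 48.0%, 20.4% and 37.5% for Miox, 30.7%, 68.8%, 17.3% and 82.3% for Slc22a6, and 209%, 122%, 204% and 117% for Kap, so no single value gives the amount of proximal tubule RNA in CTAL2. All 13 proximal tubule markers were present in CTAL2, with a summed level of 4392, 12918, 5645 and 14358 CPM. Kap stood at 3718, 8467, 4951 and 9102 CPM, so this sum mostly follows 1 gene. The 6 adipocyte markers summed to 4.57, 1.20, 2.25 and 80.8 CPM, with 1 of them at 0 in every mouse. The mitochondrial share and the proximal tubule sum were thus higher in batch 4 in both groups, and within each batch higher in the UNx mouse. Single proximal tubule genes went both ways. In batch 3 Slc34a1, Slc5a12, Cubn, Slc5a2 and Miox were lower in the UNx mouse and Lrp2, Slc22a6 and Kap higher. In batch 4 Slc5a12, Cubn, Slc5a2 and Miox were lower and Slc34a1, Lrp2, Slc22a6 and Kap higher. Across the libraries 18 barcodes occur more than once, 3 CTAL2 nuclei carry one of them, and 0 of them pair a CTAL2 nucleus with another.

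The class carried its 3 markers. Slc12a1 (ENSMUSG00000027202, GRCm38 chromosome 2, 125152505 to 125230002, plus strand) stood at 19157, 16307, 18724 and 13915 CPM. Every CTAL2 nucleus had at least 1 Slc12a1 UMI, also after each nucleus was thinned to 1500 UMIs, when the median nucleus held 28, 24.5, 28 and 24 of them. In PTS1, which should lack the gene, 29.0%, 94.2%, 44.4% and 94.2% of nuclei had a Slc12a1 UMI, and 5.42%, 43.5%, 8.05% and 52.8% after thinning, at median depths of 10423, 10785, 12414.5 and 8358 UMIs. Umod (chromosome 7, 119462711 to 119479282, minus strand) stood at 2908, 2852, 2713 and 2237 CPM and Egf (chromosome 3, 129677565 to 129755316, minus strand) at 10549, 8908, 9671 and 6551 CPM. After thinning, 93.1% to 97.6% of CTAL2 nuclei had a Umod UMI and 97.6% to 99.2% an Egf UMI.

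Among the 23 classes with at least 10 nuclei in every mouse, CTAL2 had the highest mean level of Umod, 2677 ± 305 CPM (mean ± SD, n = 4 mice, 2 of each group). CTAL1 followed with 2408 ± 341 CPM, a gap smaller than the spread between mice. Within each mouse Umod was higher in CTAL2 than in CTAL1, where it stood at 2890, 2186, 2408 and 2148 CPM. The medullary class MTAL followed with 1245 ± 151 CPM. For Egf the order was CTAL1 with 11467 ± 2036, CTAL2 with 8920 ± 1716 and MTAL with 2663 ± 1107 CPM. For Slc12a1 it was MTAL with 17271 ± 2265, CTAL2 with 17026 ± 2423 and CTAL1 with 14783 ± 1784 CPM, levels that overlapped between the mice of the 3 classes. Within each mouse Slc12a1 was higher in CTAL2 than in CTAL1, while the order of CTAL2 and MTAL differed between mice. The macula densa, the sensor cells at the end of the thick limb, has a class of its own with 50 nuclei. Its defining genes were near 0 in CTAL2, where Nos1 ranged from 0 to 2.08 CPM and Pappa2 from 0.174 to 1.15, against means of 1137 and 967 CPM in the macula densa class. The 8 macula densa markers summed to 51.3, 89.8, 76.8 and 45.2 CPM in CTAL2, most of it Robo2 at 41.7, 81.4, 68.8 and 37.8 CPM.

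CTAL2 and CTAL1 shared the markers of the segment and differed in claudins, receptors and transcription factors. The classes were drawn by the authors from these same nuclei, so the values that follow describe the classes and no test was made. Of 4199 genes with at least 50 CPM in the higher class, 592 were higher in CTAL2 in all 4 mice and 405 lower, and with a mean ratio of at least 2-fold 40 were higher and 38 lower. Ratios are log2 of (CPM + 1) within each mouse, averaged over the 4 mice.

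The claudins divided the cortical classes. Cldn10 (chromosome 14, 118787908 to 118875489, plus strand) stood at 327, 243, 250 and 253 CPM in CTAL2 and at 108, 144, 49.2 and 154 CPM in CTAL1. Cldn16 (chromosome 16, 26463135 to 26482765, plus strand) had the opposite order, with 24.4, 40.9, 50.5 and 48.3 CPM in CTAL2 and 174, 117, 219 and 146 CPM in CTAL1. In both genes the mice of the 2 classes did not overlap. MTAL had Cldn10 at 362, 277, 300 and 273 CPM and Cldn16 at 20.2, 12.6, 32.6 and 9.41 CPM. In CPM, CTAL2 was closer to MTAL than to CTAL1 for both genes in every mouse. As log2 ratios of (CPM + 1) this held in every mouse for Cldn10 but not for Cldn16. In sham 2 and UNx 2 the Cldn16 ratios of CTAL2 were 1.62 and 2.24 to MTAL and −1.49 and −1.58 to CTAL1. These mice were thus closer to CTAL1 on that scale, and the other mice were closer to MTAL. Cldn19, the partner of claudin-16, overlapped between the classes, with 66.0, 49.8, 66.7 and 42.0 CPM in CTAL2, 49.3 to 87.5 in CTAL1 and 44.1 to 68.8 in MTAL. After thinning, 37.8%, 29.8%, 28.7% and 33.1% of CTAL2 nuclei had a Cldn10 UMI and 3.95%, 5.65%, 6.87% and 9.47% a Cldn16 UMI, while 0.658%, 0.806%, 1.79% and 2.37% had both. Without thinning these shares were 72.8% to 79.3% for Cldn10 and 11.8% to 27.8% for Cldn16. In CTAL1 the shares after thinning were 6.63% to 19.0% for Cldn10, 20.2% to 29.6% for Cldn16 and 1.02% to 4% for both. Whether nuclei with both were fewer than the single shares would give was not tested. PTS1 nuclei had a Cldn16 UMI in at most 0.930% after thinning, but Cldn10 is also a gene of the proximal tubule, with 40.8%, 39.8%, 44.8% and 48.6% of PTS1 nuclei. The part of proximal tubule RNA in the CTAL2 level of Cldn10 was not tested.

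**Figure D1:**
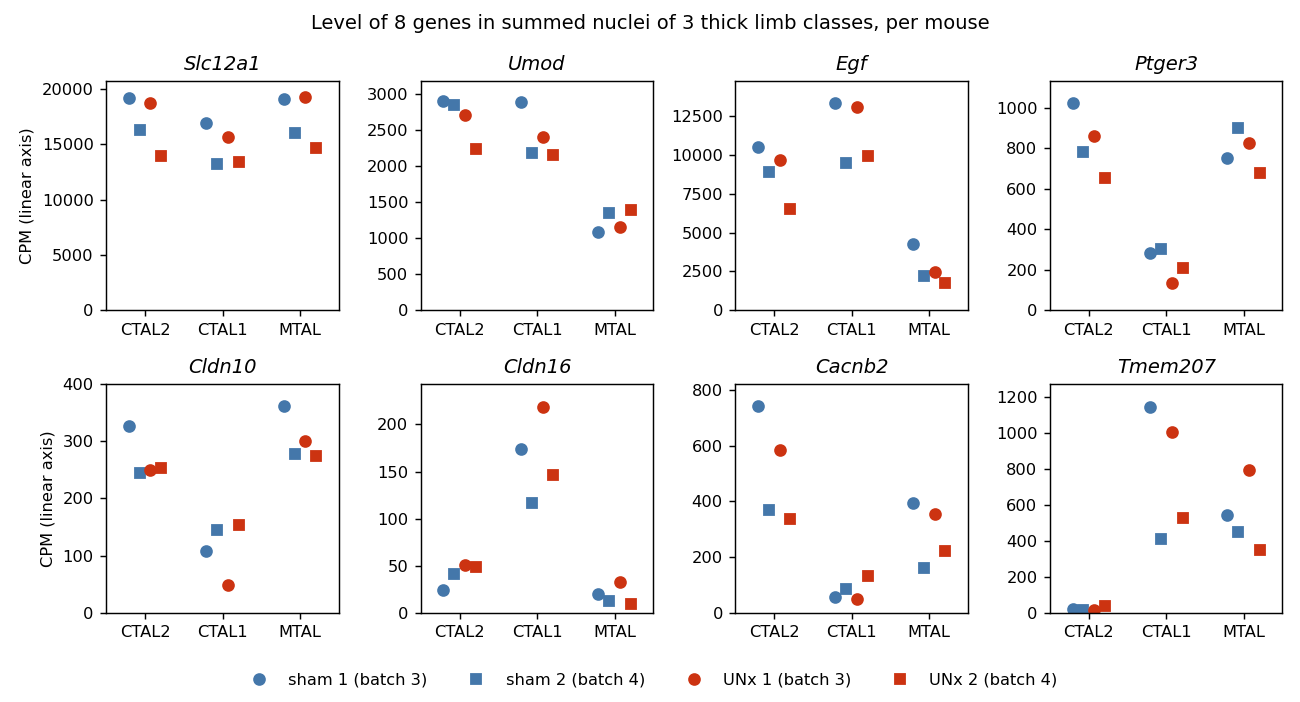
Levels of 8 genes in CPM (linear axes from 0) in the summed nuclei of CTAL2, CTAL1 and MTAL, 1 point a mouse, with circles for batch 3, squares for batch 4, blue for sham and red for UNx. Cldn10, Ptger3 and Cacnb2 are higher in CTAL2 than in CTAL1 in every mouse, Cldn16 and Tmem207 lower, and Umod and Egf lie above MTAL in every mouse.

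Receptors and a kinase differed as well. Ptger3, the prostaglandin E2 receptor EP3, stood at 1022, 779, 857 and 652 CPM in CTAL2, at 284, 303, 136 and 207 CPM in CTAL1 and at 750, 900, 823 and 675 CPM in MTAL. The calcium-sensing receptor gene Casr was at 480, 441, 451 and 361 CPM in CTAL2 and 900, 660, 810 and 605 CPM in CTAL1, with 137 to 257 CPM in MTAL. Casr in CTAL2 was thus below CTAL1 and above MTAL in every mouse. The kinase gene Wnk1, a regulator of cation-chloride cotransporters, showed the same intermediate place, with 522, 656, 787 and 505 CPM in CTAL2, 1302 to 3261 in CTAL1 and 194 to 382 in MTAL.

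The 10 named genes with the largest mean ratios of CTAL2 over CTAL1 were Eprn (3.58), Pla2g7 (3.34), Chst8 (3.34), Robo3 (2.80), Cacnb2 (2.67), Irx1 (2.57), Irx2 (2.49), Plxnb1 (2.28), Pknox2 (2.14) and Thsd4 (2.13). Cacnb2, a beta subunit of voltage-gated calcium channels, stood at 741, 367, 585 and 337 CPM in CTAL2 and at 55.7, 84.9, 51.0 and 130 CPM in CTAL1. Irx1 and Irx2 encode homeodomain transcription factors of the Iroquois group that pattern the intermediate nephron, and Irx1 was at 86.3, 60.8, 84.8 and 56.9 CPM in CTAL2 against 6.72 to 16.6 in CTAL1. These genes were also higher in CTAL2 than in MTAL in all 4 mice, except Pla2g7, with a mean ratio of 0.15 that ranged from −0.23 to 0.37.

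The 10 named genes with the largest ratios toward CTAL1 were Tmem207 (−5.06), Nrxn3 (−4.40), Tmem52b (−4.01), Kcnj10 (−3.50), Itpr2 (−3.40), Jag1 (−3.30), Zfp503 (−3.21), Rbfox1 (−3.10), Foxq1 (−3.09) and Lrmda (−3.06). Kcnj10 encodes Kir4.1, a basolateral potassium channel subunit that pairs with Kir5.1 (Kcnj16). It was at 7.11, 5.57, 4.73 and 15.3 CPM in CTAL2 and at 85.2, 89.0, 107 and 95.4 CPM in CTAL1, whereas Kcnj16 was at 609 to 738 CPM in CTAL2 and 676 to 1034 in CTAL1. Tmem207 stood at 14.0 to 40.3 CPM in CTAL2 against 410 to 1146 in CTAL1 and 348 to 796 in MTAL. Jag1, a Notch ligand, was at 1.97 to 9.72 CPM in CTAL2 and 44.2 to 73.4 in CTAL1. For all of these 10 genes except Kcnj10 the gap was smaller in both batch 4 mice than in both batch 3 mice. Batch 4 had the higher proximal tubule and mitochondrial levels, and the part of RNA from outside the nuclei in this was not tested.

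**Figure D2:**
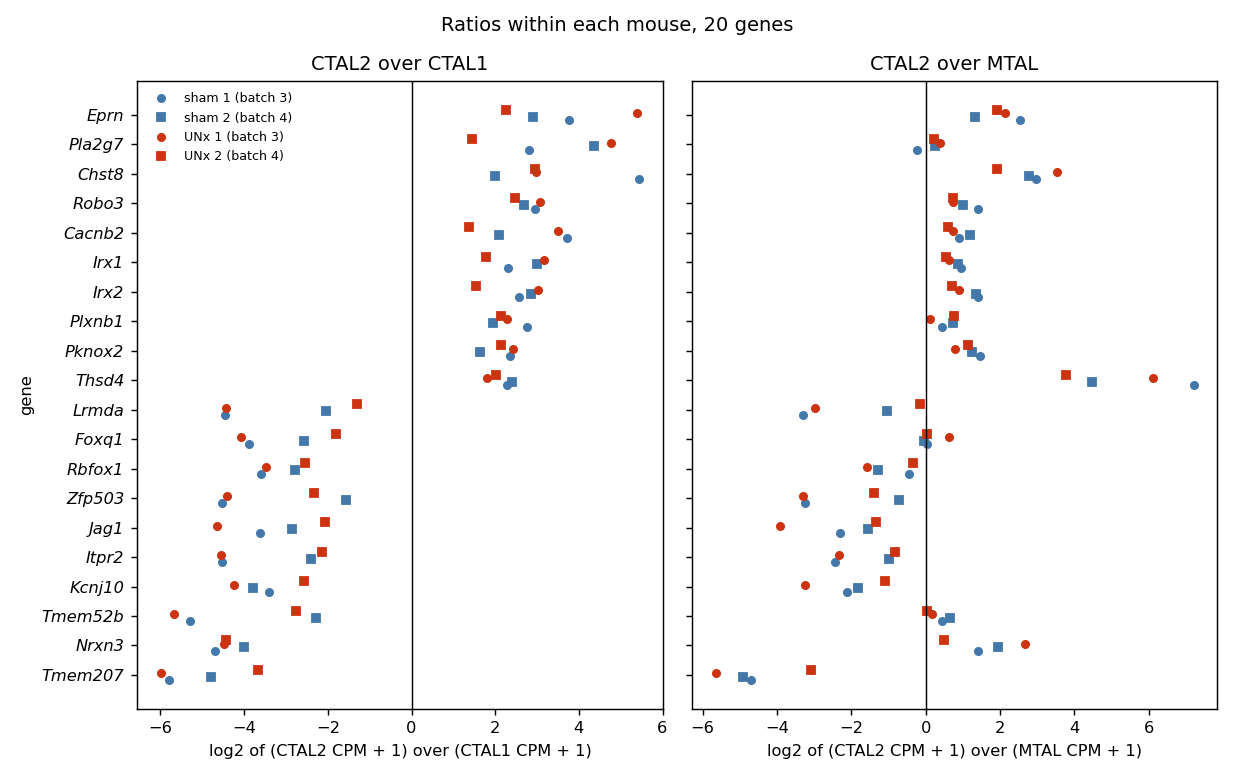
Log2 ratios of (CPM + 1) for the 20 genes with the largest mean ratios between CTAL2 and CTAL1, against CTAL1 on the left and against MTAL on the right, 1 point a mouse. All points of the upper 10 genes lie above 0 and all points of the lower 10 below 0 on the left, as the choice of genes requires, and on the right the upper genes lie above 0 except Pla2g7 in sham 1.

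Against the medullary class, CTAL2 was higher in 718 and lower in 799 of 4243 genes in all 4 mice. The largest ratio was that of Thsd4, at 567, 1104, 960 and 683 CPM in CTAL2 and 2.85 to 49.1 CPM in MTAL. It was followed by Enox1 (4.55), Sfrp1 (3.52), a secreted Wnt antagonist, Cadm2 (3.50) and Sulf2 (3.28). Among the lower genes were Tmem207 (−4.59), Rgs7 (−3.51), Sgcz (−3.38) and Gpc5 (−3.04). Umod had a mean ratio of 1.10 and Egf of 1.80 over MTAL, while Slc12a1 had −0.02. Enox1 lay between the classes, with 288, 762, 429 and 635 CPM in CTAL2, 845 to 1773 in CTAL1 and 10.0 to 37.0 in MTAL. For Ptger3 the mean ratio to MTAL was 0.06 and for Cldn10 it was −0.18, where those to CTAL1 were 1.88 and 1.34.

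The remaining comparison asks how CTAL2 nuclei of the kidney left after nephrectomy differ from those of sham mice. Removal of a kidney makes the other enlarge and take over the filtered load, which the thick limb has to reabsorb. Counts were summed per mouse and tested with edgeR's quasi-likelihood test, and the threshold for a call was an adjusted p (Benjamini-Hochberg) under 0.05. Without a term for batch, 0 of 11609 tested genes were called (0%), with 51 at an unadjusted p under 0.05 (0.439%), and DESeq2 and limma voom also called 0, with 22 and 52 at an unadjusted p under 0.05. Since the labelled batch pairs 1 sham with 1 UNx mouse, the fit with batch as a term stands beside it. It called 5 genes (0.0431%), of which Bcl6, Hmgcs1 and Odc1 rose and Col5a2 and Fgf9 fell, and 956 genes had an unadjusted p under 0.05 (8.23%), 511 higher (4.4%) and 445 lower (3.83%). With 2 mice a group an exact permutation test of a single value cannot go below p = 0.33, so every call rests on the model.

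Before the values, the promoters of 3 of the genes in this comparison are printed, because targets of STAT and SREBP factors are described in it. They run from 250 bases before to 50 after a transcription start in RefSeq (GRCm38.p6), each 5′ to 3′ on the gene's strand, with motif matches in capitals. The motif TTCNNNGAA, which reads the same on both strands, is the core of sites bound by STAT factors. TCACNCCAC, searched on both strands, has the letters of the sterol regulatory element bound by SREBP factors. The first occurs in 8.30% of 32851 promoters and the second in 1.24%, and a match is a description of letters and not a bound site. Cish and Bcl6 are shown for the first motif and Hmgcs1 for the second. Fgf9 was searched for the first and Odc1 for the second, and their promoters held 0 matches. Promoter sequences of Socs2 and Col5a2 were not used here.
Cish (chr9:107296409-107296708, plus strand): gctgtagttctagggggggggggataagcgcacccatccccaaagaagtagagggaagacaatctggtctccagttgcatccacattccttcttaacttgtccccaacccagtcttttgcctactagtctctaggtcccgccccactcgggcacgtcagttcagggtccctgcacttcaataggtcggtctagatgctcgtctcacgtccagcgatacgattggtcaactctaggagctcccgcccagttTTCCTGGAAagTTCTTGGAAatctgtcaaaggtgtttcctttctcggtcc
Bcl6, downstream start (chr16:23981234-23981533, minus strand): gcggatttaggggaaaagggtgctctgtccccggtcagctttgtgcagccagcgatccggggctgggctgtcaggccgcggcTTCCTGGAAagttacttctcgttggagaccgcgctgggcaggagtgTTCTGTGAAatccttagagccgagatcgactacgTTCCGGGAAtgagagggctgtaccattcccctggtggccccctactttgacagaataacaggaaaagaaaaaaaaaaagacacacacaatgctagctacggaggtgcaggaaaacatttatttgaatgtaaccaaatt
Hmgcs1 (chr13:119690101-119690400, plus strand): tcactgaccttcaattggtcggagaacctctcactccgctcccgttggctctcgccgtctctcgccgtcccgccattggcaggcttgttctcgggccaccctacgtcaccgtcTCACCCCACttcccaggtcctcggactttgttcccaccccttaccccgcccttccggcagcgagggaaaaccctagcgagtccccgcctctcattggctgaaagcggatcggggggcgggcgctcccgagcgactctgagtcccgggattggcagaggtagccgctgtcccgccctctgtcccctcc
The Cish promoter holds 2 matches, TTCCTGGAA and TTCTTGGAA, and 0.457% of promoters hold 2 or more. The downstream Bcl6 promoter holds 3 matches, TTCCTGGAA, TTCTGTGAA and TTCCGGGAA, and the upstream one, about which RefSeq places another start, holds TTCTCAGAA. The Hmgcs1 promoter holds 1 match to the sterol motif, TCACCCCAC. Of 17 genes of the cholesterol synthesis list with a promoter in the table, Hmgcs1 alone holds it.

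Col5a2, which encodes a chain of the fibrillar collagen type V, had the lowest p. It stood at 321 and 292 CPM in sham and 101 and 48.0 CPM in UNx, and both UNx mice lay below both shams. The log2 change was −2.02 with batch as a term (SE 0.205, edgeR adjusted p 0.00691) and −1.65 and −2.58 within batches 3 and 4. Fgf9, a secreted fibroblast growth factor, stood at 268 and 187 CPM in sham and 121 and 52.5 CPM in UNx, again without overlap. Its log2 change was −1.39 (SE 0.182, edgeR adjusted p 0.0318). Both genes had little RNA in PTS1, where Col5a2 averaged 6.64 and Fgf9 23.6 CPM.

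Bcl6, a transcriptional repressor, had the largest change of the called genes, from 7.62 and 17.6 CPM in sham to 52.5 and 66.0 CPM in UNx. The log2 change was 2.38 (SE 0.301, edgeR adjusted p 0.0318), with 2.63 and 1.84 within the batches. Hmgcs1, the enzyme that makes hydroxymethylglutaryl-CoA at the start of cholesterol synthesis, went from 93.5 and 147 CPM to 198 and 311 CPM. Its log2 change was 1.13 (SE 0.153, edgeR adjusted p 0.0331) and 1.08 in each batch. Odc1, the rate-limiting enzyme of polyamine synthesis, stood at 35.6 and 89.1 CPM in sham and 73.2 and 232 CPM in UNx. Its groups overlap, since UNx 1 lies below sham 2, but UNx was higher within both batches, by 1.02 and 1.37, and the log2 change was 1.27 (SE 0.181, edgeR adjusted p 0.0409). Without batch as a term the Odc1 change ranged from 0.25 (without UNx 2) to 2.18 (without sham 2) when 1 mouse was left out, against 1.36 with all mice.

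The 3 genes that rose have a higher mean level in PTS1 than in CTAL2, with 249 against 187 CPM for Hmgcs1, 55.1 against 35.9 for Bcl6 and 128 against 108 for Odc1. The part of proximal tubule RNA in their CTAL2 values was not tested. In PTS1 itself the log2 change was 0.20 for Hmgcs1 and 0.34 for Odc1, neither called, and 1.78 for Bcl6 (edgeR adjusted p 0.0434). Of the 511 genes higher at an unadjusted p under 0.05, 57.3% had a higher level in PTS1 than in CTAL2, of the 445 lower ones 24.9%, and of all tested genes 36.2%. The number of calls in fits with batch as a term ranged from 5 to 100, the latter when mitochondrially encoded genes were left out. All 5 genes were among those 100, while DESeq2 with batch as a term called Col5a2, Fgf9 and Hmgcs1 and gave no adjusted p for Bcl6 and Odc1.

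**Figure D3:**
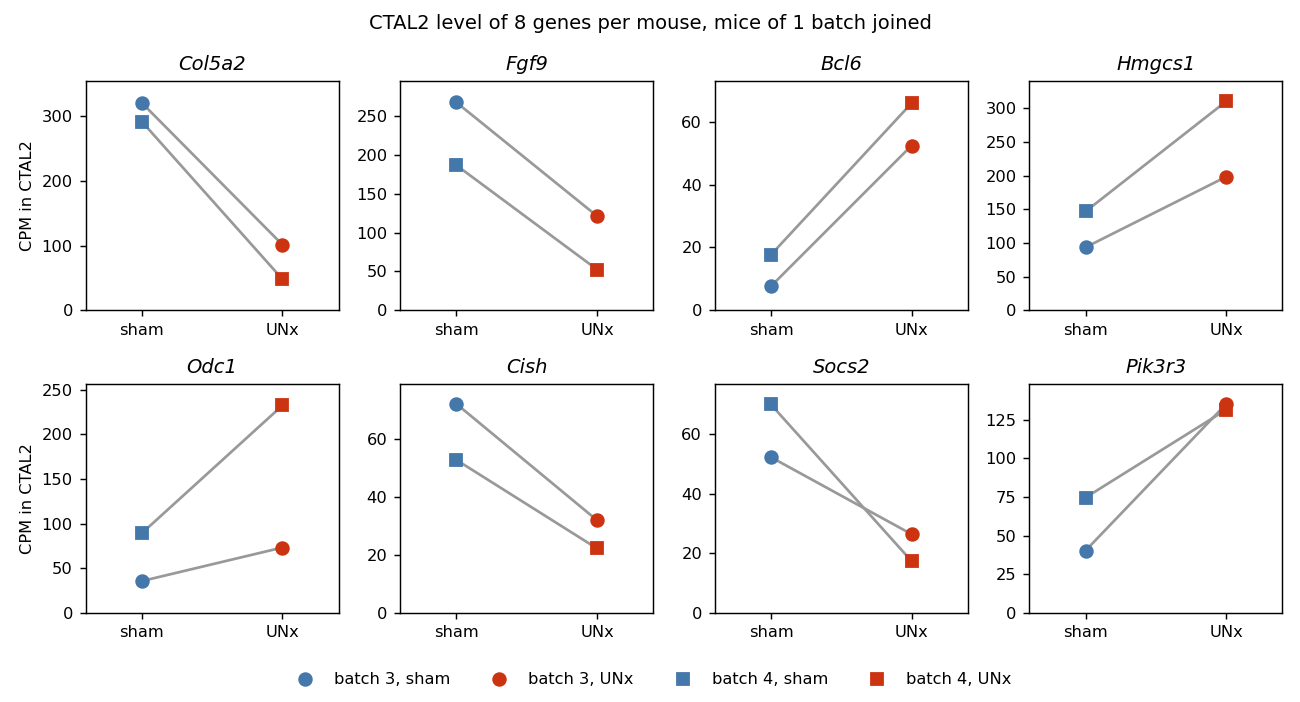
CPM in CTAL2 of the 5 genes called with batch as a term and of Cish, Socs2 and Pik3r3, with a line joining the sham and UNx mouse of each batch (circles batch 3, squares batch 4, linear axes from 0). Both lines fall for Col5a2, Fgf9, Cish and Socs2 and both rise for the others, and sham and UNx overlap only for Odc1. Bcl6, Col5a2, Socs2 and Pik3r3 passed a naming rule that required no overlap.

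None of these changes was particular to CTAL2 by test. The difference between the UNx effect in CTAL2 and that in CTAL1 was called for 0 of 11781 genes (0%), with 483 at an unadjusted p under 0.05, and that from MTAL for 0 of 13154 (0%), with 366, in edgeR with the mouse as a block. DESeq2 called 0 in both as well, with 32 and 42. Without sham 1 the comparison with CTAL1 gave 12 calls. With batch as a term, Col5a2 fell in CTAL1 by 2.17 on the log2 scale (edgeR adjusted p 1.2e-09), from 1503 and 600 CPM in sham to 310 and 137 CPM in UNx, and in the distal convoluted tubule class DCT by 1.84 (edgeR adjusted p 0.00603). Its MTAL value was −1.70 (edgeR adjusted p 0.103). Bcl6 rose in CTAL1 by 1.53 and in DCT by 1.44 (edgeR adjusted p 0.0143 and 0.0402), and stood at 1.25 in MTAL without a call. Odc1 rose by 1.01 in CTAL1 and 1.17 in DCT (edgeR adjusted p 0.0101 and 0.00359), with 1.11 in MTAL.

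Hmgcs1 and Fgf9 were called in CTAL2 and in none of the other 4 classes. The Hmgcs1 change was 1.15 in MTAL (edgeR adjusted p 0.0507), 0.51 in CTAL1 and 0.36 in DCT. The difference between CTAL2 and CTAL1 in the Hmgcs1 change was 0.61 on the log2 scale (SE 0.192) and missed the threshold (edgeR adjusted p 0.999). For Fgf9 the change was −0.73 in CTAL1, −0.36 in MTAL and −0.74 in DCT (edgeR adjusted p 0.0981, 0.546 and 0.0738). The Fgf9 difference was −0.66 from CTAL1 (SE 0.199, edgeR adjusted p 0.999) and −0.99 from MTAL (SE 0.277), where it missed the threshold too. The lowest p of all differences belonged to genes outside this group, among them Dnah12 (−1.33) and Calm2 (−1.14) against MTAL, with edgeR adjusted p of 0.633 and 0.642. Slc14a2, Dab2 and Cyp2j13 toward higher and Gulp1, Brip1os and Pde10a toward lower differed most from CTAL1, Cables1, Pik3r3 and Aoah toward higher and Magi2 toward lower from MTAL, none called. With batch as a term, 67 genes were called in CTAL1, 4 in MTAL, 61 in DCT and 243 in PTS1, and 0 in each class without it.

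**Figure D4:**
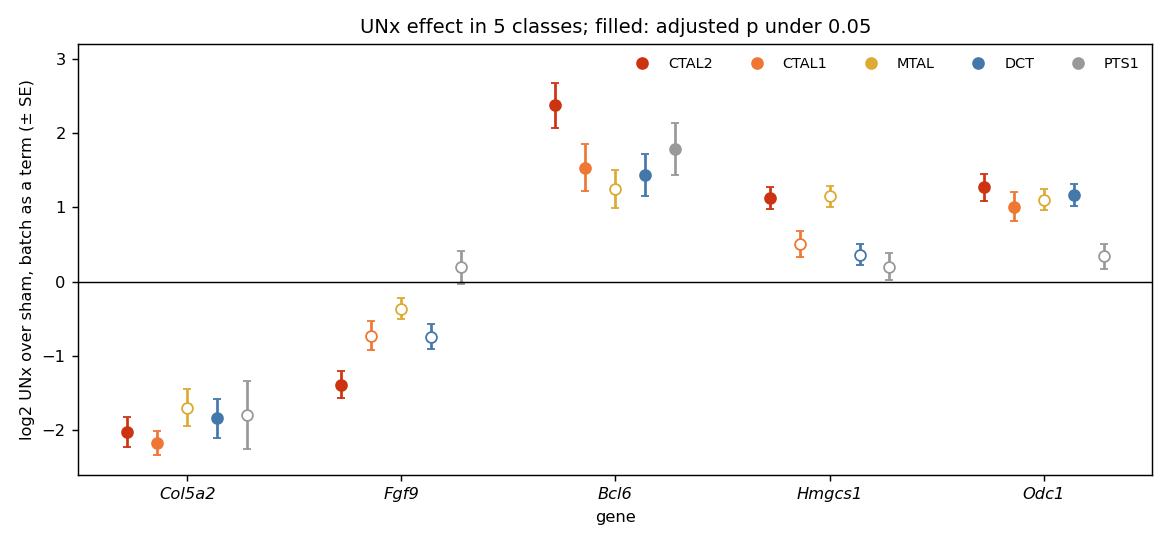
Log2 change from sham to UNx with batch as a term (points, with bars for ± 1 SE) of the 5 genes called in CTAL2, in CTAL2, CTAL1, MTAL, DCT and PTS1; filled points have an edgeR adjusted p under 0.05. Col5a2 lies below 0 and Bcl6 above 0 in all 5 classes, while Fgf9 and Hmgcs1 are filled in CTAL2 and in none of the other 4.

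Further genes named for the lowest p in either direction missed the threshold in edgeR fits of all tested genes in CTAL2, with batch as a term and without it. Higher in both UNx mice than in both shams were Casc4 (21.4, 16.0, 42.0 and 42.8 CPM), Cables1 (38.6, 44.1, 83.6 and 71.8 CPM), Ica1 (26.6, 34.4, 60.7 and 51.7 CPM) and Pik3r3, a regulatory subunit of phosphoinositide 3-kinase. Pik3r3 stood at 40.3, 74.6, 135 and 132 CPM, a log2 difference of 1.35 (SE 0.216, edgeR adjusted p 0.0748 with batch as a term). Lower were Pappa, a protease that frees insulin-like growth factors from a binding protein (98.7, 77.3, 43.4 and 38.5 CPM), the iron exporter ferroportin Slc40a1 (65.0, 49.3, 27.6 and 22.2 CPM) and the lipid phosphatase Plpp3 (185, 140, 89.1 and 74.0 CPM). Their log2 values with batch as a term were −1.06, −1.16 and −0.95. With batch as a term and no mitochondrially encoded genes, Casc4, Cables1, Pik3r3, Pappa, Slc40a1 and Plpp3 were called (edgeR adjusted p 0.000626 to 0.0423) and Ica1 was not. Pik3r3, Pappa and Plpp3 were also called with batch as a term in limma voom and with thinned nuclei. In CTAL1 the edgeR fit with batch as a term called Cables1, Pik3r3, Pappa, Slc40a1 and Plpp3 in the same direction (adjusted p 0.000461 to 0.0429). Casc4 and Ica1 were not called there. Slc40a1 and Plpp3 were also called lower in PTS1 (edgeR adjusted p 0.0177 and 0.0206), and none of these genes was called in MTAL or DCT. Non-overlapping groups were a condition for naming these genes. Such groups are also common here, since 8.25% of tested genes were higher and 11.5% lower in this way.

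Growth hormone and related cytokines act through the kinase JAK2 and the factors STAT5A and STAT5B, which induce the inhibitors Cish and Socs2. Socs2 was at 52.3 and 70.0 CPM in sham and 26.4 and 17.4 CPM in UNx, a log2 value of −1.37 with batch as a term (SE 0.279, edgeR adjusted p 0.131). Cish (chromosome 9, 107296026 to 107302784, plus strand) was at 72.1 and 52.8 CPM in sham and 31.9 and 22.2 CPM in UNx, with −1.15 and −1.21 within the batches and −1.17 in the fit (SE 0.232, edgeR adjusted p 0.122). Stat5a had the opposite sign at 33.0, 35.7, 54.8 and 57.0 CPM, and Stat5b was at 134, 108, 145 and 134 CPM. The groups do not overlap for Cish, Socs2 and Stat5a, and none of them was called in CTAL2 in edgeR fits of all tested genes without thinning. In the fit with batch as a term and no mitochondrially encoded genes, Socs2 and Cish were called lower and Pik3r3 higher. Socs2 was also called with batch as a term and thinned nuclei. With that term Socs2 was called lower in CTAL1 (−1.85), DCT (−1.15) and PTS1 (−2.04), with edgeR adjusted p of 0.00332, 0.00686 and 0.0165. In MTAL it had −1.11 without a call (edgeR adjusted p 0.319). In PTS1 the Cish level was 48.2 and 44.0 CPM in sham and 1.21 and 5.26 CPM in UNx, and the part of PTS1 RNA in the CTAL2 values was not tested. Of the 32 growth signalling genes, all tested, 9 were higher and 11 lower in both batches, with a median log2 value of −0.0036, against −0.0038 over all tested genes.

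Genes of cholesterol synthesis, which SREBP2 controls, lay mostly above sham. Of 25 genes on the list 24 were tested, and 17 were higher and 0 lower in UNx in both batches (70.8%, against 22.5% of all tested genes higher in both). The median log2 value was 0.52 without and 0.62 with batch as a term, against −0.0038 and −0.0054 over all tested genes. Hmgcs1 alone was called, with batch as a term, and 10 had an unadjusted p under 0.05 there, all higher. Fdft1, squalene synthase, was at 30.5, 29.7, 48.5 and 52.1 CPM. Stard4, which carries cholesterol between membranes, was at 9.65, 11.3, 18.5 and 31.2 CPM, and the regulator Srebf2 itself at 80.3, 110, 124 and 129 CPM. In these 3 genes both UNx mice lay above both shams, as in 8.25% of all tested genes. Sqle, squalene epoxidase, was at 9.65, 33.4, 18.5 and 62.1 CPM, so that its groups overlap while UNx was higher by 0.88 in each batch.

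In PTS1 of batch 3, 7 of the 24 genes were above 0 with a median of −0.25, while in CTAL2 23 were above 0 with a median of 0.63. In batch 4, 21 of 24 were above 0 in PTS1 (median 0.31) and 18 in CTAL2 (median 0.34). The part of free proximal tubule RNA in the CTAL2 values of batch 4 was not tested.

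**Figure D5:**
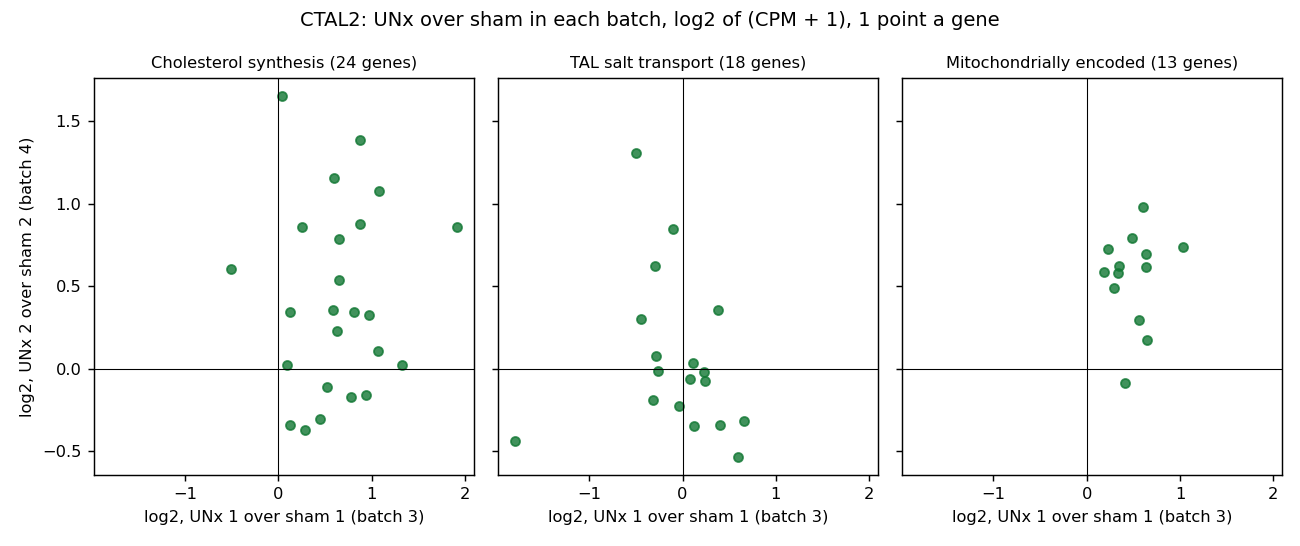
Log2 of (CPM + 1) of UNx over sham in CTAL2 within batch 3 (horizontal) and batch 4 (vertical), 1 point a gene, for 3 gene lists. Cholesterol synthesis has 17 of 24 points above 0 on both axes and none below 0 on both, salt transport genes scatter about 0, and 12 of 13 mitochondrially encoded genes are above 0 on both.

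Of 18 salt transport genes, all tested, 0 were called in either edgeR fit, 2 were higher and 4 lower in both batches, and the median log2 value was 0.09 (0.10 with batch as a term). At an unadjusted p under 0.05 there were 0 genes without batch and 1 with it. Slc12a1 had −0.08 without and −0.09 with batch as a term (SE 0.201), Kcnj1 at 367, 351, 400 and 275 CPM had −0.06 with batch (SE 0.157), and the sodium pump subunit Atp1b1 had 0.11. Bsnd, which encodes barttin, had −0.11, and the potassium channel subunits Kcnj16 and Kcnj10 0.16 and 0.41. The sodium-proton exchangers Slc9a3 and Slc9a2 had −0.21 and 0.12, the bicarbonate transporters Slc4a2 and Slc4a7 0.42 and 0.06, the pump subunit Fxyd2 0.22, and the potassium-chloride cotransporters Slc12a4 and Slc12a7 0.14 and 0.40. Signs of such small values flipped between settings for Slc12a1, Kcnj1, Bsnd, Fxyd2 and others. The gene with the lowest p was Kcnt1, which encodes a sodium-activated potassium channel. It was at 188 CPM in sham 1 and 55.8, 53.6 and 41.0 CPM in the other mice, so its value of −1.25 (SE 0.277, edgeR adjusted p 0.151 with batch as a term) comes with −1.79 in batch 3 and −0.44 in batch 4. With batch as a term it was called lower without mitochondrially encoded genes (edgeR adjusted p 0.0062), with limma voom (adjusted p 0.0492) and with thinned nuclei (edgeR adjusted p 0.0142), and leaving out sham 1 without that term moved it from −1.32 to −0.20. Umod had −0.18 and Egf −0.24 with batch as a term, neither called, with edgeR adjusted p of 0.867 and 0.836.

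Regulators and secreted products gave few calls. Of the 16 tested genes that control NKCC2, 0 were higher and 6 lower in both batches, with a median of −0.01. Of all tested genes 31.9% were lower in both batches, the background for this and the other lists, and the list's own share was 37.5%. Of 13 tested paracellular genes 2 were higher and 6 lower in both batches, and 0 were called. Cldn16, at 24.4, 40.9, 50.5 and 48.3 CPM, had 0.72 with batch as a term (edgeR adjusted p 0.482), and Rragd, a GTPase of nutrient sensing mutated in a salt- and magnesium-losing tubulopathy, was at 31.0, 59.8, 22.9 and 23.6 CPM with −0.81 (edgeR adjusted p 0.456). Among 15 tested secreted proteins Fgf9 alone was called, with batch as a term. Spp1, osteopontin, was at 262, 281, 208 and 178 CPM with a value of −0.45 (edgeR adjusted p 0.432), both UNx mice below both shams, as in 11.5% of all tested genes. Of 18 tested hormone receptor genes and 23 tested transcription factors of the segment 0 were called, with medians of 0.01 and 0.04 with batch as a term.

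Few cell cycle genes were measured in enough counts to test. Of 22 mitosis genes 1 passed the filter on low counts, Kif23, at 18.8, 16.7, 48.2 and 30.5 CPM, a value of 1.20 (SE 0.285, edgeR adjusted p 0.179 with batch as a term). Of 26 DNA replication genes 8 passed, and 1 was higher and 3 lower in both batches. Of 21 immediate early genes 7 passed, of which 4 were higher and 0 lower in both batches and 0 were called. Of all tested genes 22.5% were higher and 31.9% lower in both batches. Egr1 had 1 and 3 UMIs in the shams and 49 and 13 in the UNx mice, a ratio of 11.9 with a counting interval of 4.41 to 44.9 at 95%. Its edgeR adjusted p was 0.133 with batch as a term. At 0.508 and 2.79 CPM in sham and 19.3 and 9.03 CPM in UNx, Egr1 passed the filter on low counts only through the UNx mice. Its direction is thus tied to the filter, and Egr1 is among the 4 counted as higher. With batch as a term and no mitochondrially encoded genes, both Egr1 (edgeR adjusted p 0.0108) and Kif23 (edgeR adjusted p 0.0474) were called higher. Btg2, an antiproliferative gene, was at 14.2, 9.29, 32.7 and 19.4 CPM, and Klf6 at 20.3, 13.9, 24.1 and 38.9 CPM. Both were higher in both UNx mice than in both shams, as were 8.25% of all tested genes.

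Of 15 tested genes of the unfolded protein and ATF4 response 7 were higher and 1 lower in both batches, with a median of 0.22, and 0 were called. These shares were 46.7% and 6.67%, against 22.5% and 31.9% of all tested genes. The chaperone Hspa5 was at 42.2, 121, 63.5 and 239 CPM. Mitochondrially encoded genes were higher in both batches in 12 of 13 cases, with a median of 0.53 with batch as a term. The share of mitochondrial RNA given above is the sum of these same genes. It was higher in batch 4 than in batch 3 in both groups, and the part of RNA from outside the nuclei was not tested. Nuclear genes of the respiratory chain, 35 tested, had 4 higher and 8 lower in both batches. Ribosomal protein genes, 36 tested, had 5 higher and 12 lower, and their counts are uncertain because of pseudogene copies. In each of these lists 0 genes were called in either edgeR fit of all tested genes. Other fits with batch as a term called Hspa5 higher, without mitochondrially encoded genes (edgeR adjusted p 0.0204) and with thinned nuclei, and mt-Nd3 and mt-Nd5 in DESeq2, in limma voom, with thinned nuclei and without the genes higher in PTS1. Limma voom and thinned nuclei with that term also called mt-Nd1 and mt-Co2.

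CTAL2 made up 5.69% and 4.70% of all nuclei in sham and 6.50% and 5.02% in UNx, a difference of 0.569 percentage points. Exact 95% intervals, which cover counting error only, were 5.08% to 6.35% and 3.92% to 5.57% in sham and 5.85% to 7.21% and 4.31% to 5.81% in UNx. As a share of thick limb nuclei (CTAL1, CTAL2 and MTAL) the values were 29.8% and 30.9% in sham and 31.1% and 27.1% in UNx, a difference of −1.22 points. The groups overlap on both scales. Within batches the share of all nuclei was higher in the UNx mouse in both, and the share of thick limb nuclei was higher in batch 3 and lower in batch 4. The sort of nuclei and the slice taken can set such shares.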

How the data were processed

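Single-nucleus RNA-seq of 4 kidneys was used, and 36 bulk libraries of the same series are not analysed here. The authors deposited 1 table of 32285 genes by 16500 nuclei whose values are estimated counts (13.9% are not whole), with alevin, Seurat and mm10 named per the submitters' processing notes. Versions and the filters applied to nuclei are not stated in the labels or headers. Whether doublets had been taken out is not stated either, and none were searched for. The annotation is the authors' own and has 30 coarse and 33 fine names.

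Estimated counts were summed over the nuclei of each class and mouse, rounded, filtered by expression and scaled by TMM. Groups were compared with edgeR 4.0.16 in R 4.3.3 (quasi-likelihood test, two-sided, group only), with Benjamini-Hochberg adjustment over all tested genes. Alternatives used DESeq2 1.42.0, limma 3.58.1, no filter, each nucleus thinned to 1500 UMIs, each mouse left out, and the replicate block. The replicate number is the labelled batch, so it pairs the mice, and the deviations of same-numbered mice from their group means correlated at 0.755, a value that with 2 mice a group is equal for both pairs. The scripts were tested on simulated data with planted changes, in which the fit without the block made no calls and so missed all of them. An absence of calls in that fit therefore does not show that no gene changed. P-values measure the spread between these mice only.

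Named genes are the called genes and the lowest p up to 5 in each direction, 3 in each direction for a difference between classes, the 10 largest ratios in each direction between CTAL2 and CTAL1 (at least 50 CPM, same direction in 4 of 4 mice, pseudocount 1), the salt transport genes (some members of the lists are not reported here), and in other lists the called member and the lowest p. For UNx against sham, the lowest p were taken only among genes whose groups do not overlap and whose mean log2 CPM is at least 5. For a difference between classes only the condition on the level held, and predicted genes were passed over. Further list members, and the genes of the comparison with MTAL, were picked after their values were seen. The members and all 37 gene lists were chosen with earlier results of these data known. Positions come from the GENCODE annotation of GRCm38.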

Additional observations from a re-analysis of the deposited data

How the results depend on the processing

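Without the replicate block, 0 genes were called in CTAL2 under every setting tried except no filter on low counts, which gave 4 (Bcl6 and Col5a2 among them). With the replicate block 5 were called. The 5 further settings were added to the block after seeing the data and gave 15 calls without genes above their CTAL2 level in PTS1, 100 without mitochondrially encoded genes, 6 with DESeq2, 30 with limma voom and 36 with thinned nuclei, and the cause of these differences was not tested. Col5a2 and Fgf9 were called in all 5 of these and Hmgcs1 in all but the first, which leaves it out. Bcl6 and Odc1, also left out of the first, were called in the others except DESeq2, which gave them no adjusted p. Differences from CTAL1 ranged from 0 to 12 calls with 1 mouse left out, 12 of them without sham 1, and those from MTAL reached 11 with no filter. The CTAL2 share differed by −1.22 points among thick limb nuclei, against 0.569 among all nuclei.

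Named genes whose sign turned are given here. Thinned values were 0.0043 for Slc12a1 (0.0060 with the block) and −0.40 for Slc4a7 (−0.28 with the block). With 1 mouse left out, values ranged for Slc12a1 from −0.27 to 0.084, Kcnj1 from −0.30 to 0.16, Kcnj10 from −0.42 to 1.32, Bsnd from −0.58 to 0.34, Fxyd2 from −0.28 to 0.71, Slc9a2 from −0.24 to 0.39, Slc12a4 from −0.25 to 0.64, Slc12a7 from −0.11 to 0.98, mt-Nd1 from −0.79 to 2.19 and Rps27 from −1.07 to 0.59. The CTAL2 share ranged from −0.172 to 1.31 points.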
